A study of Homo sapiens with 6 samples.

Results

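The HSP70 and HSP110 chaperones of THP1 cells were examined after 6 h of exposure to withaferin A (WFA), a steroidal lactone from Withania somnifera, or to its DMSO vehicle. The family was taken as the 10 genes HSPA1B, HSPA6, HSPA8, HSPA4, HSPA4L, HSPH1, HSPA5, HSPA9, HSPA13 and HSPA14, chosen by name from the 26485 genes of the count table. The choice was made with earlier results of these data known. THP1 is a human acute myeloid leukemia line of monocytic type, and both groups held unmodified cells of this single line grown in RPMI medium with fetal bovine serum. Each group had 3 RNA-seq libraries from independent experiments. The sample labels give the WFA concentration as 1 mM. The methods and the RNA-seq figure legends of the study give it as 1 μM, and only a single concentration and time were sequenced.

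HSP70 proteins bind exposed hydrophobic stretches of unfolded proteins and release them in a cycle driven by ATP. J-proteins deliver substrates and stimulate hydrolysis of ATP, while nucleotide exchange factors, among them the larger HSP110 proteins, remove ADP so that the substrate is let go. In the cytosol, HSF1 induces HSP70 genes through heat shock elements when misfolded proteins accumulate, and in the endoplasmic reticulum (ER) the unfolded protein response induces the ER member HSPA5 through ER stress response elements.

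Promoter windows are shown for the members that have the most abundant transcripts or the largest changes described below, because these windows differ in whether they hold such elements. All are RefSeq sequences on GRCh38.p14, read 5′ to 3′ on the strand of the gene and covering the 250 bases before the annotated start. Capitals mark matches to the heat shock dimer GAANNTTC or TTCNNGAA, to the heat shock trimer, in which GAANNTTC is followed by NNGAA or TTCNNGAA by NNTTC, or to the ER stress response element, in which CCAAT and CCACG are 9 bases apart. Each was searched on both strands. A trimer contains one dimer of each kind.

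HSPA1B, chr6:31827488-31827737, plus strand: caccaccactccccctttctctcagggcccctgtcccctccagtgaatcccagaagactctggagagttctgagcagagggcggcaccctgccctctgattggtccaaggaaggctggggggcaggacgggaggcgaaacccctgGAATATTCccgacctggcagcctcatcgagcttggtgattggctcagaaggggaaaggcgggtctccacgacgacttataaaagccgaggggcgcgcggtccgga
HSPA6, chr1:161524290-161524539, plus strand: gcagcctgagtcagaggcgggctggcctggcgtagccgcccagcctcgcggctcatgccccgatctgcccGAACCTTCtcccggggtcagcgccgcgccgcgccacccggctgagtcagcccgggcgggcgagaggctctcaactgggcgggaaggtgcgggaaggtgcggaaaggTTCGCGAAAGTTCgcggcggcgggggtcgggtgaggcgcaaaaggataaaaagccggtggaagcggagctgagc
HSPH1, chr13:31162389-31162638, minus strand: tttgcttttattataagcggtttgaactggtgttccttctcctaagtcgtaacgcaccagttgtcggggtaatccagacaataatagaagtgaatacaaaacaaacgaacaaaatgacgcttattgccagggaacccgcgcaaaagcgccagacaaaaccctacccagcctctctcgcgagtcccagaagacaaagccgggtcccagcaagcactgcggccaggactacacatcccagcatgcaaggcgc
HSPA5, chr9:125241344-125241593, minus strand: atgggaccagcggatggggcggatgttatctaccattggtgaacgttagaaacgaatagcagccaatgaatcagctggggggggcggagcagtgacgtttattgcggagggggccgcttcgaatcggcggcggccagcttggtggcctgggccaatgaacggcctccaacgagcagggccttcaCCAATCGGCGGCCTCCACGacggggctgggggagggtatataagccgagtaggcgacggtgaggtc

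For HSPA8 only the stretches around its 2 trimers are shown, since exons of other annotated transcripts overlap that window, which lies inside the outermost bounds of the gene.

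HSPA8 upstream trimer, chr11:123062348-123062372, minus strand: gagcttGAAAGTTCCAGAAcgctgc
HSPA8 proximal trimer, chr11:123062173-123062197, minus strand: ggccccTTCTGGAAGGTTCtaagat

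HSPA6 had 1 trimer, from -74 to -62 relative to the start, and a separate dimer from -180 to -173. The trimers of HSPA8 lay from -230 to -218 and from -55 to -43. HSPA1B had a dimer from -105 to -98 and no trimer. The trimer was present in 0.490% of the 35116 RefSeq windows, which also include 50 bases after the start, and the dimers GAANNTTC and TTCNNGAA were present in 6.77% and 7.74%. HSPA5 had 1 ER stress response element, from -66 to -48, a match found in 0.0770% of windows. Of the 9 members with a window, 2 held a trimer. The windows of HSPH1, HSPA4 and HSPA13 held none of these letters, nor the second form of the ER stress element, in which ATTGG and CCACG are 1 base apart. HSPA4L had a TTCNNGAA match in 1 of its 3 windows and HSPA9 had one that spans the start. A match is a description of letters and not a site shown to be bound, and a window without one says nothing about the factor.

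**Figure D1:**
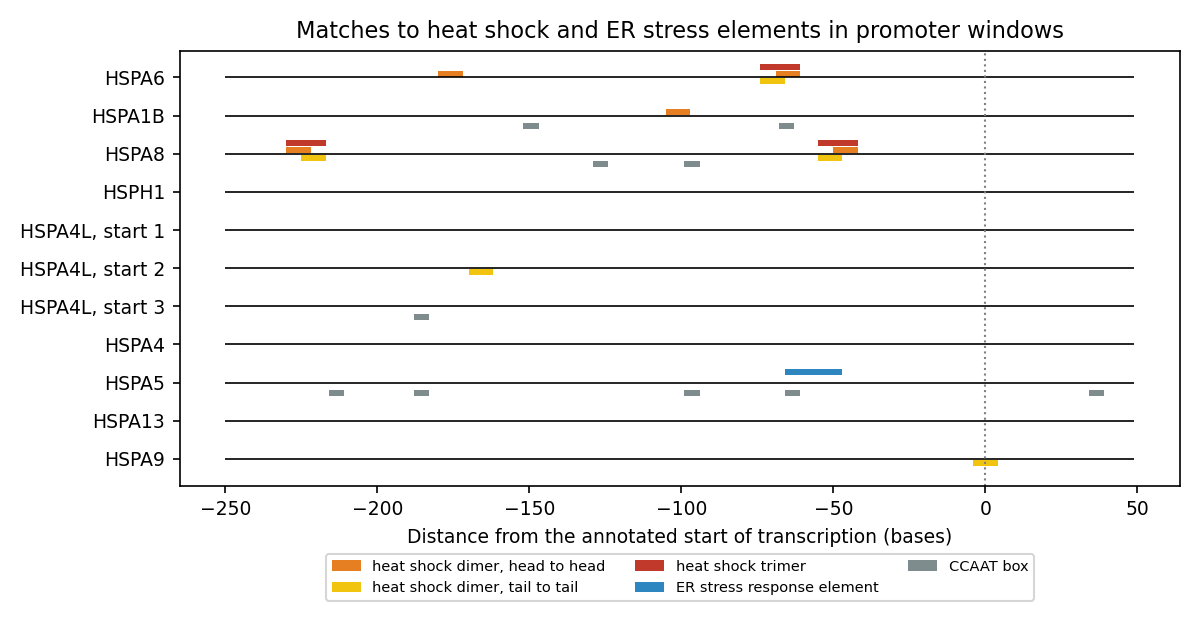
Position of each motif match in the promoter windows of 9 members, in bases from the annotated start of transcription (dotted line), with 1 row per window. Heat shock trimers appear only in the windows of HSPA6 and HSPA8, and the ER stress response element only in that of HSPA5. The CCAAT box is plotted as an additional element.

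The family accounted for 0.648% ± 0.0637 (SD, n = 3) of all counts with DMSO and 1.85% ± 0.111 (SD, n = 3) with WFA. Libraries held between 11006035 and 13872810 counts. Expression is given as CPM, in which the count is divided by the TMM-adjusted library size. Summed over the 10 members, the level was 7018, 6202 and 5685 CPM in DMSO replicates 1, 2 and 3, and 19180, 17900 and 20070 CPM in the WFA replicates. Each WFA library was therefore above each DMSO library. The mean rose from 6302 ± 672 to 19050 ± 1091 CPM (SD, n = 3 each), and the ratio of the geometric means was 3.03. HSPA1A, a near-identical copy of HSPA1B, is not in the sum. Reads shared by these copies may be uncounted, so the part of HSPA1B in the sum is uncertain. The exact permutation test of the log2 sum gave p = 0.1 (two-sided), the smallest value possible for 3 libraries against 3. Within replicates 1, 2 and 3 the log2 differences were 1.45, 1.53 and 1.82, and flipping their signs exactly gave p = 0.25, again the smallest value possible. In RNA from whole cultures, a change in the number of cells that express a gene and a change in RNA per cell cannot be told apart.

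In edgeR's quasi-likelihood test with a threshold of 0.05 on the adjusted p (Benjamini-Hochberg), 9 of the 10 members were higher and 1 was lower with WFA. The background is high, as 50.5% of the 12854 tested genes passed this threshold, 25.8% as higher and 24.7% as lower. All members passed the filter on low counts. SE below is a standard error of the log2 fold change, computed as its absolute size over the square root of edgeR's F statistic. The fitted rise was over 2-fold for 6 members, against 8.11% of tested genes. The members' median log2 fold change was 1.58, against 0.02 over all tested genes, and it was 1.504, 1.52 and 1.74 in replicate pairs 1, 2 and 3. The libraries of the groups did not overlap for any member, with WFA higher for 9 and lower for 1, compared with 29.6% and 28.5% of tested genes in these directions.

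**Figure D2:**
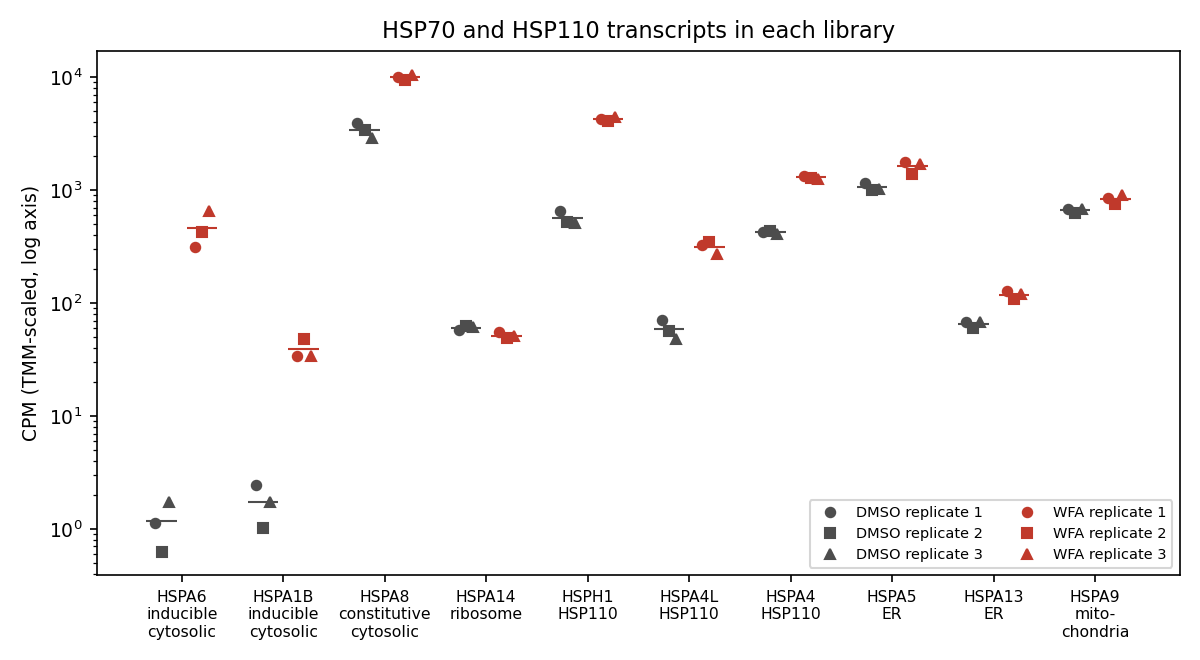
TMM-scaled CPM of each member in each library on a log axis, with DMSO in grey and WFA in red, 1 symbol per replicate and a line at the group mean (n = 3). HSPA6 and HSPA1B lie near 1 CPM with DMSO and at 313 to 652 and 34.1 to 48.3 CPM with WFA, whereas HSPA8 exceeds 2880 CPM in every library.

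The stress-inducible cytosolic members had the largest rises. HSPA6, or HSP70B′, is a human HSP70 that is scarcely expressed without stress. It lies on chromosome 1 (GRCh38.p14, chr1:161524540-161526894) and has a single exon. HSPA6 had 1.13, 0.632 and 1.75 CPM in DMSO replicates 1, 2 and 3, from 16, 8 and 21 counts. With WFA it had 313, 424 and 652 CPM, from 3828, 5267 and 7003 counts. All WFA libraries thus lay far above the DMSO libraries, with replicate 3 the highest in both groups. The log2 fold change was 8.63 (SE 0.32, edgeR adjusted p = 5.77e-11), or 396-fold, and ranked 1 among the 12854 tested genes.

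HSPA6 shares sequence with HSPA7, a neighboring HSP70 gene long regarded as a pseudogene. Of the 100-base windows of HSPA6 transcripts, 27.6% also occurred in HSPA7, and 45.5% of 50-base windows did. HSPA7 had 9, 4 and 27 counts with DMSO and 62, 38 and 108 with WFA, and its log2 fold change of 2.52 (edgeR adjusted p = 7.68e-04) is uncertain because reads may belong to either gene. It was 3.60 without DMSO replicate 3, which holds most of the HSPA7 counts with DMSO. When the counts of both genes were summed, the log2 fold change was 7.73, so the fold of HSPA6 depends on how such reads were assigned.

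HSPA1B encodes the major inducible HSP70. It lies in the major histocompatibility complex region (chr6:31827738-31830254, 1 exon), next to its near-identical copy HSPA1A (chr6:31815543-31817942). HSPA1B had 2.46, 1.03 and 1.75 CPM with DMSO (35, 13 and 21 counts) and 34.3, 48.3 and 34.1 CPM with WFA (420, 600 and 366 counts). The WFA libraries were all higher, with replicate 2 highest among them and lowest among the controls. Its log2 fold change was 4.45 (SE 0.23, edgeR adjusted p = 1.39e-09), a rise of 21.9-fold and rank 28 of the tested genes. HSPA1A had no counts with DMSO and 1, 1 and 2 with WFA, at the floor of these libraries. Of the 100-base windows of HSPA1B, 72.7% were shared with other genes, and the 250 bases upstream of both copies were 93.6% identical. The handling of reads that map to more than one place is not given in the sources used here, so the level of HSPA1B on its own is uncertain. Summing the copies gave a log2 fold change of 4.46. As HSPA1A added at most 2 counts to a library, this sum could hardly differ. It does not show how shared reads were handled.

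HSPA8, or HSC70, is the constitutive cytosolic HSP70, which also acts in clathrin uncoating and chaperone-mediated autophagy. It has 9 exons on chromosome 11 (chr11:123057489-123062462). HSPA8 had 3913, 3420 and 2880 CPM with DMSO and 10037, 9404 and 10570 CPM with WFA. The groups were well apart, with SDs of 517 CPM among the controls and 584 CPM among the treated libraries. Its log2 fold change was 1.56 (SE 0.13, edgeR adjusted p = 1.44e-07), or 2.94-fold. It thus added more CPM than any other member, even though its fold ranked 452 of the tested genes.

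HSPA14, the HSP70 of the ribosome-associated complex that assists nascent chains, was the member that was lower. It lies on chromosome 10 (chr10:14838306-14871741). HSPA14 had 57.6, 62.8 and 61.2 CPM with DMSO and 55.1, 48.6 and 51.0 CPM with WFA. Its groups did not overlap but were separated by little. Its log2 fold change was -0.23 (SE 0.09, edgeR adjusted p = 0.0464), and -0.23 with the replicate block (edgeR adjusted p = 0.0217). The call was lost with DESeq2 (adjusted p = 0.0534), without the filter (edgeR adjusted p = 0.0561) and when DMSO replicate 1, 2 or 3 or WFA replicate 2 or 3 was left out, with edgeR adjusted p-values up to 0.145. The block fit set each gene's variance to the trend over all genes, so its p-values do not reflect a gene's own spread. DNAJC2, the J-protein that forms this complex with HSPA14, was also lower (log2 fold change -0.32, edgeR adjusted p = 0.0111), although not past the threshold without DMSO replicate 3 (edgeR adjusted p = 0.0621).

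**Figure D3:**
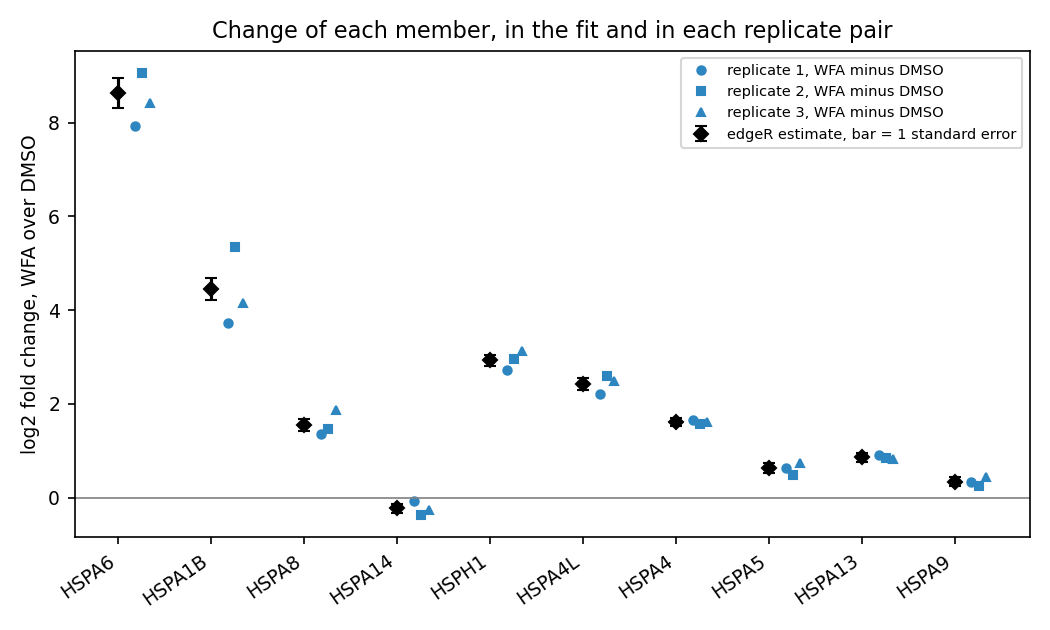
Log2 fold change of each member (WFA over DMSO) from the edgeR fit, with a bar of 1 standard error, beside the differences within replicates 1, 2 and 3. All 3 replicates show the same direction for each member, from 7.93 to 9.06 for HSPA6 and from -0.37 to -0.07 for HSPA14.

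The 3 HSP110 members rose to different extents. HSPH1 (HSP105) is the heat-inducible HSP110, which releases ADP from HSP70 and takes part in disaggregation. Located at chr13:31134973-31162388 with 18 exons, HSPH1 had 651, 525 and 514 CPM with DMSO and 4307, 4075 and 4494 CPM with WFA. The lowest WFA library of HSPH1 was thus far above its highest control. This gave a log2 fold change of 2.93 (SE 0.12, edgeR adjusted p = 1.84e-10), or 7.62-fold.

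HSPA4L (APG-1) belongs to the same exchange factor class, and it started from the lowest level of these 3 genes. At chr4:127781796-127840733, with 19 exons, HSPA4L had 70.9, 57.0 and 48.4 CPM with DMSO and 330, 345 and 271 CPM with WFA. Replicate 3 was lowest in both groups, which did not overlap. Its log2 fold change was 2.42 (SE 0.13, edgeR adjusted p = 2.33e-09), or 5.36-fold.

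HSPA4 (APG-2) is the broadly expressed HSP110 exchange factor. HSPA4 (chr5:133052013-133106449, 19 exons) had 428, 436 and 412 CPM with DMSO and 1344, 1296 and 1255 CPM with WFA. The libraries within each group were close to each other and the groups were far apart. The log2 fold change of HSPA4 was 1.61 (SE 0.09, edgeR adjusted p = 2.89e-09), or 3.05-fold. That is near the 2.94-fold of HSPA8, and no test of the difference between these 2 genes was made.

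In the ER, HSPA5 (BiP) is the abundant HSP70 that folds secretory proteins and holds the sensors of the unfolded protein response inactive. HSPA5 (chr9:125234853-125241343, 8 exons) had 1149, 1008 and 1018 CPM with DMSO and 1784, 1397 and 1709 CPM with WFA. WFA replicate 2 was the lowest of its group but still above all controls. Its log2 change was 0.62 (SE 0.11, edgeR adjusted p = 2.48e-04), or 1.54-fold. HSPA13 (STCH), a microsomal HSP70 that lacks the substrate-binding domain, lies at chr21:14371115-14383146 with 5 exons. HSPA13 had 68.1, 60.6 and 68.7 CPM with DMSO and 127, 109 and 121 CPM with WFA, and the groups were well separated. Its log2 fold change was 0.85 (SE 0.09, edgeR adjusted p = 2.16e-06), or 1.81-fold.

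HSPA9 (mortalin) is the mitochondrial HSP70, which draws proteins through the inner membrane and folds them. With 17 exons at chr5:138553756-138575401, HSPA9 had 676, 632 and 678 CPM with DMSO and 849, 751 and 916 CPM with WFA. The WFA libraries were all higher, but the nearest libraries of the groups were only 678 and 751 CPM. The log2 fold change of 0.34 (SE 0.10, edgeR adjusted p = 0.00829) was the smallest rise of the family. It held when each library was left out in turn, with edgeR adjusted p-values up to 0.0402.

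Levels of different genes were compared as CPM per kilobase of the longest RefSeq-matched transcript. With DMSO, HSPA8 was highest at 1382 ± 210 CPM per kilobase (SD, n = 3), followed by HSPA5 at 271 ± 20.2. HSPA9 at 140 ± 5.53, HSPH1 at 109 ± 14.7 and HSPA4 at 88.1 ± 2.54 CPM per kilobase came next (SD, n = 3 each). These 5 genes did not overlap between libraries, but the order of the last 3 depends on the length used. Per kilobase of all annotated exons, HSPA4, HSPA9 and HSPH1 had 82.5, 80.2 and 67.2, and neighbors overlapped. Below them came HSPA13 at 16.5 ± 1.12, HSPA14 at 12.6 ± 0.551 and HSPA4L at 5.45 ± 1.05 CPM per kilobase (SD, n = 3 each). HSPA1B at 0.693 ± 0.285 and HSPA6 at 0.493 ± 0.236 were lowest and overlapped with each other. The transcript used for HSPA14 has 5 exons, so its level per length is less certain. The levels of HSPA1B and HSPA6 are uncertain too, as 72.7% and 27.6% of their 100-base windows were shared with other genes.

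With WFA the order changed below HSPA8, which had 4062 ± 237 CPM per kilobase (SD, n = 3). HSPH1 moved from rank 4 to rank 2 with 827 ± 40.5, above HSPA5 with 417 ± 52.5 CPM per kilobase (SD, n = 3 each). HSPA4 with 269 ± 9.28 and HSPA6 with 195 ± 72.9 overlapped between libraries, as did HSPA6 and HSPA9 with 177 ± 17.5 CPM per kilobase (SD, n = 3 each). HSPA6 ranked last in the controls and reached or, per kilobase of all annotated exons, exceeded the range of HSPA9, the libraries then being apart. HSPA13 at 29.9 ± 2.25 and HSPA4L at 29.2 ± 3.63 CPM per kilobase could not be ordered either (SD, n = 3 each). HSPA1B at 15.4 ± 3.24 was next to last, and HSPA14 at 10.7 ± 0.673 CPM per kilobase was last (SD, n = 3 each). Reads shared with other genes make the level and rank of HSPA1B uncertain. The ranks of all 10 genes with WFA were the same with the length of all annotated exons.

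As shares of the family's counts, HSPA8 made up 53.9% ± 2.78 with DMSO and 52.5% ± 0.167 with WFA (SD, n = 3 each). The share of HSPH1 was 8.93% ± 0.423 with DMSO and 22.5% ± 0.202 with WFA. HSPA5 had 16.8% ± 0.926 and 8.54% ± 0.749, and HSPA9 had 10.6% ± 1.20 and 4.395% ± 0.185. The cytosolic exchange factor HSPH1 thus took a larger portion of family reads and the ER and mitochondrial members a smaller one, although HSPA5 and HSPA9 themselves rose. HSPA6 had 0.0190% ± 0.0106 with DMSO and 2.42% ± 0.809 with WFA, and HSPA4 had 6.79% ± 0.605 and 6.83% ± 0.518. Reads shared by HSPA1B and HSPA1A may be missing from the family's counts, so these shares are uncertain to that extent.

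**Figure D4:**
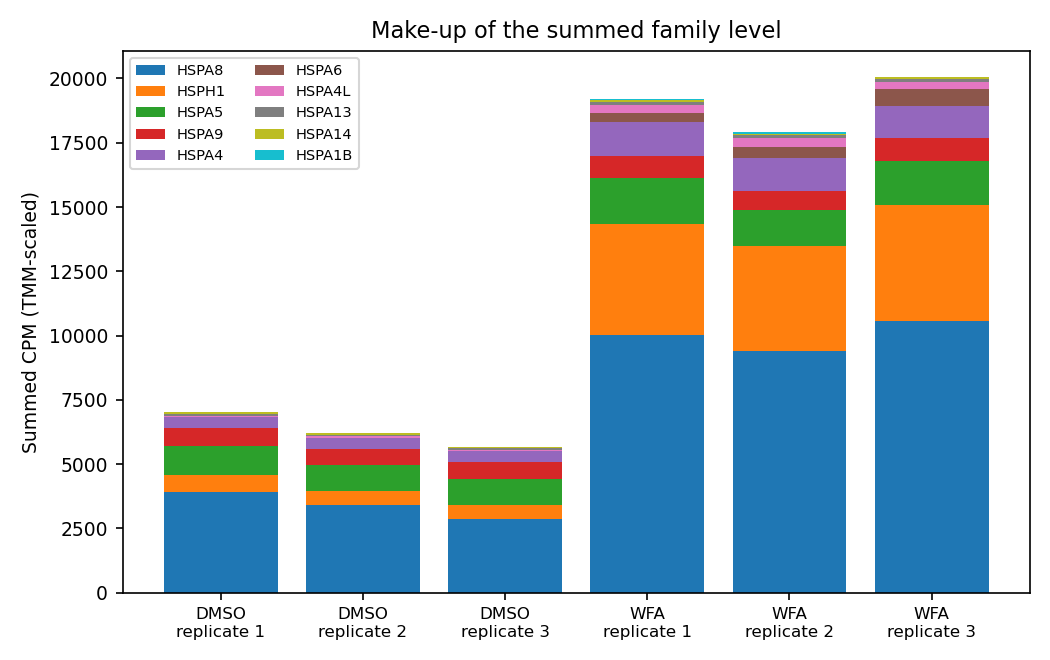
Summed TMM-scaled CPM of the 10 members in each library, stacked by gene. The bars reach 5685 to 7018 CPM with DMSO and 17900 to 20070 CPM with WFA, and the band of HSPH1 widens from 8.93% to 22.5% of family counts while HSPA8 keeps the widest band.

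Ratios of 2 members within a library do not depend on the scaling between libraries. There were 1.52, 1.20 and 1.25 HSPH1 reads per HSPA4 read with DMSO and 3.20, 3.14 and 3.58 with WFA, a log2 difference of 1.33. HSPA6 had 0.457, 0.615 and 1.00 reads per HSPA1B read with DMSO and 9.11, 8.78 and 19.1 with WFA, a log2 difference of 4.12, or 3.34 when the near-identical copies were added to each. Both ratios thus shifted in all 3 replicates. HSPA5 had 0.294, 0.295 and 0.354 reads per HSPA8 read with DMSO and 0.178, 0.149 and 0.162 with WFA, a log2 difference of -0.95. The log2 ratio of HSPA1B to HSPA8 was higher by 2.95 with WFA. Both ratios with HSPA1B are uncertain in size, as 72.7% of its 100-base windows and 27.6% of those of HSPA6 were shared with other genes. Adding the copies would not restore shared reads that were left uncounted. The groups were separate for each of these 4 ratios. The exact permutation p (two-sided) was 0.1 for each, also after Benjamini-Hochberg adjustment over the 4 ratios, and no smaller value was possible.

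The remaining HSP70 superfamily genes were mostly scarce. HSPA2, best known from spermatogenesis, had 3.004 ± 0.245 CPM with DMSO and 6.21 ± 1.25 with WFA (SD, n = 3 each) and rose by 1.04 on the log2 scale (edgeR adjusted p = 9.25e-04). HYOU1, the large ER relative that acts as an exchange factor for HSPA5, had 385 ± 28.0 and 492 ± 55.0 CPM (SD, n = 3 each) and rose by 0.35 on the log2 scale (edgeR adjusted p = 0.00860). HSPA1L, HSPA12A and HSPA12B never exceeded 8 counts and were not tested.

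The partners of the HSP70 cycle were described by compartment, and each count below stands beside the 25.8% of all tested genes that were higher and the 24.7% that were lower. Of 19 cytosolic and nuclear J-proteins, 9 were higher, 5 were lower and 5 did not pass, with a median log2 fold change of 0.01. The replicate block gave 7 lower, and the count of lower genes is near the background share. Among those that rose, DNAJA4 had a log2 fold change of 4.25 (SE 0.12, edgeR adjusted p = 4.33e-12) and DNAJB4 of 3.52 (SE 0.13, edgeR adjusted p = 5.77e-11). DNAJB2, which sorts HSP70 clients to the proteasome, had 2.95 (edgeR adjusted p = 7.15e-10), and DNAJB6, which suppresses aggregation, had 2.27 (edgeR adjusted p = 4.17e-10). DNAJB1 and DNAJA1, general partners of cytosolic HSP70, were picked out after their values were seen, with log2 fold changes of 3.50 and 2.20. DNAJC17, a nuclear J-protein linked to splicing, had -0.62 (edgeR adjusted p = 0.00245). The others that were lower were DNAJC2, DNAJC5, DNAJC13 and DNAJA2. The median near 0 thus combines large rises with small falls.

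Among 6 cytosolic exchange factors outside the HSP110 class, 2 were higher and 1 was lower, near the background shares, with a median log2 fold change of 0.12. BAG3, which links HSP70 to selective autophagy, had 18.0 ± 0.383 CPM with DMSO and 352 ± 53.1 with WFA (SD, n = 3 each). Its log2 fold change was 4.29 (SE 0.12, edgeR adjusted p = 4.33e-12). BAG2, which inhibits the ubiquitin ligase STUB1, had 1.21 (edgeR adjusted p = 1.52e-06), and BAG5 had -0.25 (edgeR adjusted p = 0.0300), which was not past the threshold without DMSO replicate 1 or 3 or WFA replicate 2. BAG4 had -0.19 (edgeR adjusted p = 0.145) and passed only with the replicate block (edgeR adjusted p = 0.0411) or total counts (edgeR adjusted p = 0.0414), so that 2 genes were lower there. Of the 5 handover and ubiquitination partners, 2 were higher and 0 were lower in edgeR's test, also at an unadjusted p under 0.05 and with DESeq2. STIP1 (HOP), which bridges HSP70 and HSP90, rose by 1.80 on the log2 scale (edgeR adjusted p = 3.30e-09), and ST13 (HIP), which stabilizes the ADP state, had 1.48 (edgeR adjusted p = 1.10e-08). SGTA had 0.19 (edgeR adjusted p = 0.197) and TOMM34 had 0.13 (edgeR adjusted p = 0.261).

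Around HSPA5, 6 of 8 ER partners were higher, 1 was lower and 1 did not pass, beside 25.8% higher and 24.7% lower over all tested genes, with a median log2 fold change of 0.41. DNAJC3, an ER J-protein also known as an inhibitor of eIF2 kinases, had 1.05 (edgeR adjusted p = 4.72e-07). DNAJB9, which recruits HSPA5 to the sensor ERN1, had 0.92 (edgeR adjusted p = 2.25e-05). The membrane J-protein DNAJC1 had 0.51 (edgeR adjusted p = 2.31e-04) and the exchange factor SIL1 had 0.43 (edgeR adjusted p = 0.00296). DNAJC10, an ER disulfide reductase with a J domain, went the other way with -0.38 (edgeR adjusted p = 0.00514).

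Around HSPA9, none of the 7 mitochondrial partners tested was higher in edgeR's test and 3 were lower, against 25.8% and 24.7% of all tested genes, with a median log2 fold change of -0.23. The replicate block gave 1 higher and 4 lower. At an unadjusted p under 0.05, 1 was higher and 4 were lower in edgeR, and 0 and 4 with DESeq2. GRPEL1, an exchange factor of HSPA9, had 66.6 ± 3.97 CPM with DMSO and 45.6 ± 2.03 with WFA (SD, n = 3 each). Its log2 change was -0.54 (SE 0.09, edgeR adjusted p = 1.62e-04). DNLZ, which keeps HSPA9 soluble, had -0.92 (SE 0.21, edgeR adjusted p = 0.00227), and DNAJC15, a J-protein of the import motor, had -0.44 (edgeR adjusted p = 0.00132). HSCB, the J-protein of iron-sulfur cluster assembly, had 0.42 (edgeR adjusted p = 0.0512) and was called higher only with the replicate block (edgeR adjusted p = 0.0277). DNAJA3 and PAM16 were listed with 0 counts in all libraries and were not tested. Whether these genes are silent or their reads were lost in mapping or counting cannot be told from the counts. No test between compartments was made.

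**Figure D5:**
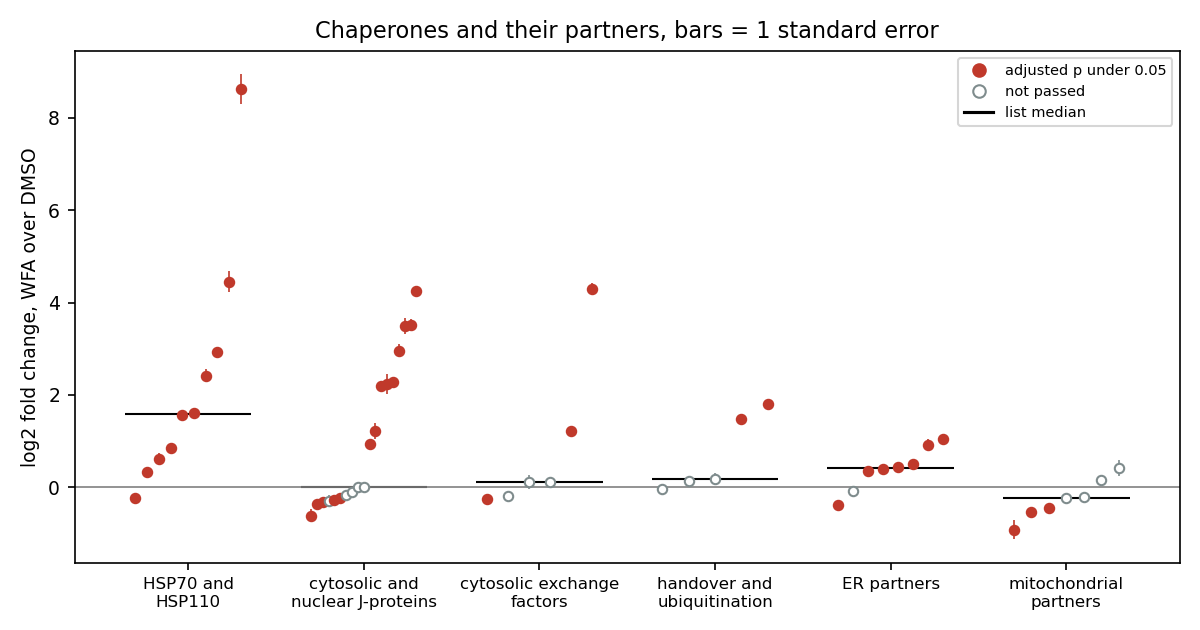
Log2 fold change (WFA over DMSO) of every tested gene of the family and of 5 partner lists, with bars of 1 standard error, filled red where the adjusted p was under 0.05 and a black line at each list's median. The medians are 1.58 for the family, 0.01, 0.12 and 0.19 for the cytosolic lists, 0.41 for the ER list and -0.23 for the mitochondrial list.

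Of 9 regulators of HSP70 genes, 5 were higher and 0 were lower in edgeR's test, against 25.8% and 24.7% of all tested genes, and 6 were higher with the replicate block. None was lower at an unadjusted p under 0.05 or with DESeq2. XBP1, a transcription factor of the unfolded protein response, rose by 0.63 on the log2 scale (edgeR adjusted p = 6.72e-05). Its upstream ER sensor ERN1 (IRE1) had 1.02 (edgeR adjusted p = 1.65e-04), and the ER kinase EIF2AK3 (PERK) had 0.66 (edgeR adjusted p = 5.48e-04). HSBP1, which binds heat shock factors, had 0.40 (edgeR adjusted p = 7.17e-04). Among the other listed genes, ATF4 had 0.45 (edgeR adjusted p = 0.0037), whereas ATF6 had -0.02 and did not pass (edgeR adjusted p = 0.84). The HSF1 transcript itself had 82.7 ± 6.56 CPM with DMSO and 75.8 ± 9.09 with WFA (SD, n = 3 each) and did not pass (edgeR adjusted p = 0.323).

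Across the 3 replicate differences, the genes nearest to HSPA8 among the 11716 genes whose average log2 CPM exceeded 1 were FTL, FAM46C, SPATS2L and FAM109A. FTL, the ferritin light chain, differed from HSPA8 by a root mean square of 0.05 (log2), with differences of 1.33, 1.40 and 1.92 in replicates 1, 2 and 3 beside 1.36, 1.46 and 1.88 for HSPA8. The nearest to HSPA1B were TRIM16L, HTRA3, BAG3 and EDNRB, at distances of 0.60 to 0.71. HSPA1B differed more between its replicates than these genes, at 3.72, 5.35 and 4.16, from only 35, 13 and 21 counts with DMSO. With 3 replicates this likeness is a description only.

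Markers of THP1's monocytic lineage were present, with 8 of 8 over 1 CPM in some library and summed levels of 2639 to 3173 CPM with DMSO and 2308 to 3094 with WFA. These sums are mostly LYZ, which had -0.05 on the log2 scale (edgeR adjusted p = 0.811). Of the 8, CD33, CEBPA, CSF1R and SPI1 were lower, with log2 fold changes of -0.85, -0.58, -0.40 and -0.34, and CD68 was higher with 0.37. Erythroid markers were at 0, and T cell markers summed to at most 0.553 CPM. Fibroblast markers summed to 0.211 to 0.917 CPM with DMSO and 8.74 to 12.7 with WFA, from COL1A1 almost alone, with COL1A2 at 0 in every library. B cell markers summed to 3.73 to 4.42 and 1.95 to 4.19 CPM, and epithelial markers stayed below 1.06 CPM. By the same criterion, 2 of 4 B cell and 1 of 4 fibroblast markers were over 1 CPM in some library, so this threshold alone does not separate lineages. The part of these markers in the changes of the chaperones was not tested.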

How the data were processed

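RNA from 3 DMSO and 3 WFA libraries was sequenced after TruSeq RNA v2 preparation, which does not mark strand. Raw, whole-number read counts for each gene symbol, as the authors deposited them, were the values used, and no normalization had been applied. The submitters' processing notes name bcl2fastq 2.19, Trimmomatic, Bowtie2, Picard, featureCounts, DESeq2 and hg38, while read length and the treatment of multiply mapped reads are not given in the sources used here. The 6 scaled columns per sample and the authors' own comparison (log2 fold changes, p-values, dispersions) were not used.

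Counts were tested with edgeR 4.0.16 in R 4.3.3 (TMM, filterByExpr with a minimum count of 10, quasi-likelihood test, Benjamini-Hochberg adjustment over all 12854 tested genes, threshold 0.05). Fits were also run on simulated counts that had no replicate effect and fewer and smaller changes than these data. Their behavior under the changes seen here was not tested. Depth was 11006035 to 13872810 counts per library, and 3 counts or fewer were treated as the floor, which covers counting error only. Within a group, libraries differed beyond sampling noise (chi-square per gene 5.67 to 10.4). Same-numbered libraries share a date-like code in the labels and deviated together (correlations 0.22, 0.33 and 0.24, against -0.26 to 0.00 for different numbers), so the numbers pair the samples, and a fit with the replicate block was run beside the unblocked one. The block fit had 2 residual degrees of freedom and an infinite prior, so every gene's variance was set to the common trend. Calls made only with the block are therefore weak. Other alternatives were DESeq2 1.42.0, total counts, no filter, summed near-identical copies and leaving out each library.

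Coordinates and promoters are from RefSeq (GRCh38.p14), with 9 of 10 members matched to a window, and lengths and shared windows from GENCODE 29 transcripts. Protein sequences were not used here. The genes named are all members, the other HSP70 superfamily genes, up to 4 genes of smallest p-value per partner or regulator list and at most 2 called in the opposite direction to its median, and the 4 nearest genes to HSPA1B and HSPA8. DNAJB1, DNAJA1, DNAJC5, DNAJC13, DNAJA2, HSF1, ATF4, ATF6, DNAJA3 and PAM16 fall outside this rule and, like the markers named, were picked out after their values were seen. Members and lists were chosen with earlier results of these data known.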

Additional observations from a re-analysis of the deposited data

How the results depend on the processing

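The direction of all 10 members was kept under the replicate block, DESeq2, total counts, no filter, summed copies and each left-out library. Summing the copies would not restore shared reads that were left uncounted. The members called lower numbered 0 with DESeq2 and without the filter, in place of 1, since HSPA14 was lost, and 0 to 1 with a library left out. The replicate block gave 2 in place of 1 lower among the cytosolic exchange factors, 1 in place of 0 higher and 4 in place of 3 lower among the mitochondrial partners, 7 in place of 5 J-proteins lower and 6 in place of 5 regulators higher. Of the genes named it changed the calls of BAG4 and HSCB and no other call of a member or named partner. Total counts gave 2 exchange factors lower, 5 mitochondrial partners lower in place of 3 with a median of -0.314, 7 J-proteins lower, and a J-protein median of -0.072 in place of 0.014. Leaving out each library gave 2 to 6 J-proteins lower in place of 5, with a J-protein median from -0.022 (without WFA replicate 1) to 0.105 (without DMSO replicate 3), 0 to 1 exchange factors lower, and a mitochondrial median from -0.312 (without WFA replicate 3) to -0.238. Total counts also moved the median of all genes from 0.022 to -0.063, so the J-protein median changed sign with the scaling and not relative to other genes. The mitochondrial median, from -0.229 to -0.314 with total counts, likewise moved with the scaling. Why the other values moved was not tested. With 3 libraries per group the exact tests cannot fall below 0.1, and HSPA1B and HSPA6 rest on 8 to 35 counts per DMSO library, so their folds are less precise than those of abundant members.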
